A study of Homo sapiens with 46 samples.

Results

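The RNAs described here are 6 short noncoding RNAs made by RNA polymerase III: RN7SL1, RN7SL2, RN7SL3, RN7SK, RMRP and RPPH1. They were taken by name from the 62756 genes of a table of raw read counts, each gene identifier being matched to its symbol. All 6 were found, and 3 of them (RN7SL1, RN7SL3 and RMRP) had any counts.

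The libraries came from DLD-1, an established line of adherent human colorectal adenocarcinoma cells. The untagged parental line was set beside 3 lines in which an auxin-inducible degron sits at the N-terminal end of an endogenous lamin, a filament protein of the nuclear lamina: Lamin A/C (LAC), Lamin B1 (LB1) or Lamin B2 (LB2). All 4 lines received 1 mM auxin, a plant hormone dissolved in DMSO, for 0, 16 or 96 h. The parental line was included to find genes that respond to auxin itself. Of the 12 groups, 10 had 4 replicates, and LB1 at 0 h and LB2 at 96 h had 3. Each replicate came from its own well of a 6-well plate, so the p-values measure the spread between wells, which may be partly technical. Whether the 0 h cultures were given DMSO, and whether a tagged line is 1 clone, is not stated in the labels. The degron acts on protein, so RNA levels cannot check which lamin was degraded.

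RNA polymerase III makes short, abundant, structured RNAs. The 7SL RNAs (RN7SL1, RN7SL2 and RN7SL3) form the scaffold of the signal recognition particle, which carries ribosomes that make secreted and membrane proteins to the endoplasmic reticulum. RN7SK holds the elongation kinase P-TEFb in an inactive particle, RMRP is the RNA of RNase MRP, which acts in ribosomal RNA maturation, and RPPH1 is the catalytic RNA of RNase P, which trims the 5′ ends of tRNA precursors.

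The sequence of RMRP is shown because RMRP is the RNA with counts that is not one of the near-identical 7SL RNAs. It comes from the transcripts of GENCODE release 29 on GRCh38, 5′ to 3′, in lower case throughout.
RMRP: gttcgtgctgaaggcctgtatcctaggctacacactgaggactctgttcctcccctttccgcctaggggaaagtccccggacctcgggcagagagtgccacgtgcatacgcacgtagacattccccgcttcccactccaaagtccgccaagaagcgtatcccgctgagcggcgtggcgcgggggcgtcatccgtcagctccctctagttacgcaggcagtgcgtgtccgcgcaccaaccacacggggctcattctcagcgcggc

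RN7SL1 lies on chromosome 14 at 49586580 to 49586878 on the plus strand. RN7SL2, at 49862550 to 49862849, and RN7SL3, at 49853616 to 49853914, are on the minus strand of the same chromosome. RMRP is at 35657754 to 35658017 of chromosome 9, minus strand. Each is a single-exon noncoding gene. RN7SL2 differs from RN7SL1 at 4 bases and carries 1 more base at its 3′ end, an identity of 98.33%. RN7SL3 differs at 7 bases, an identity of 97.66%. The longest stretch without a difference is 205 bases between RN7SL1 and RN7SL2 and 123 bases between RN7SL1 and RN7SL3. How reads that fit several of these genes were counted is not given in the sources used here, so the division of 7SL reads between the copies is uncertain.

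RN7SL2, RN7SK and RPPH1 had 0 counts in all 46 libraries. This cannot be read as absence of the RNA. In the table each of these 3 genes is covered over its whole length by an exon of a second gene record on the same strand, whereas RN7SL1, RN7SL3 and RMRP overlap no other gene on either strand. RN7SL2 lies within ENSG00000282885.3, which had 565 counts over 44 libraries. RPPH1, on chromosome 14 at 20343075 to 20343407, lies within ENSG00000259001.3, which had 11 counts over 8 libraries. RN7SK, on chromosome 6 at 52995621 to 52995948, coincides with a second record named 7SK, and both were at 0. The same held over the table: of the 300 genes of 200 to 500 bases that are wholly covered by exons on their own strand, 290 (96.67%) were at 0 in every library, against 3534 of 9017 (39.19%) with no overlap. All 248 genes of that length covered wholly by exons on the opposite strand only were at 0 too. The strand and overlap settings of the counting are not given in the sources used here. A count of 0 allows at most 3 counts. In CPM, which scale counts to a common library total, this is 0.0804 in the deepest library and 6.26 CPM in the least deep, for counting error only.

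Library totals ran from 479446 to 37309421 counts with a median of 11533218, and 6 libraries had fewer than 5000000, of which 5 were in 0 h groups. All 7 epithelial markers examined (EPCAM, CDH1, KRT8, KRT18, KRT20, VIL1 and CDX2) averaged over 1 CPM and together made up 5758 to 11074 CPM of a library. They were not constant between groups. CDX2, an intestinal transcription factor, rose with auxin at both times in the parental line (1.30 ± 0.130 and 1.24 ± 0.129 on the log2 scale), LB1 (0.86 and 0.60) and LB2 (1.19 and 0.77), and was 0.52 higher in LAC than in the parental line at 0 h. KRT20, an intestinal keratin, rose in LAC and LB1 at 96 h (0.54 and 0.64) and in LB2 at both times (0.86 and 0.70), and at 0 h was lower than in the parental line by 0.82 (LAC), 0.67 (LB1) and 0.54 (LB2). All these differences had an edgeR adjusted p under 0.05. In those comparisons 0.987% to 8.71% of all genes were called higher, and at 0 h 2.43% to 7.08% lower. KRT20 lost its call without 1 library in LAC and any 1 of 3 in LB1 at 96 h. At 0 h it did so without any 1 of 2 in LB1 and 3 in LB2 (adjusted p up to 0.107). CDX2 in LB1 at 96 h lost it without LB1 replicate 1 at 0 h (0.0712). Comparisons of a line share its 0 h libraries. The part of CDX2 and KRT20 in the results was not tested. The 7 markers of blood, stromal, endothelial, liver and neural cells summed to 2.09 to 21.4 CPM, with COL1A2 at 0.

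The RNAs with counts took 0.294% to 4.52% of a library, with a median of 0.874%. RN7SL1 gave 79.7% of these counts and was the second most counted gene of the table, with 4316299 counts over the 46 libraries, against 1031803 for RMRP and 70945 for RN7SL3. Per kilobase of gene, RN7SL1 stood above RMRP and RMRP above RN7SL3 in 46 of 46 libraries, with medians of 23034, 6822 and 393 CPM per kilobase.

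The share of a library taken by these RNAs was tied to its depth. RN7SL1 made up 1.05% to 4.06% of the 6 libraries under 5000000 counts and 0.220% to 1.99% of the other 40. In 8 of the 12 groups the least deep library had the highest RN7SL1 share, and the same count, 8 of 12, held for RN7SL3 and for RMRP. Since 5 of the 6 shallow libraries were at 0 h, depth moved together with time, and its part in the differences from 0 h was not tested beyond leaving these libraries out. The plot of RN7SL1 share against library depth shows this.

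**Figure D1:**
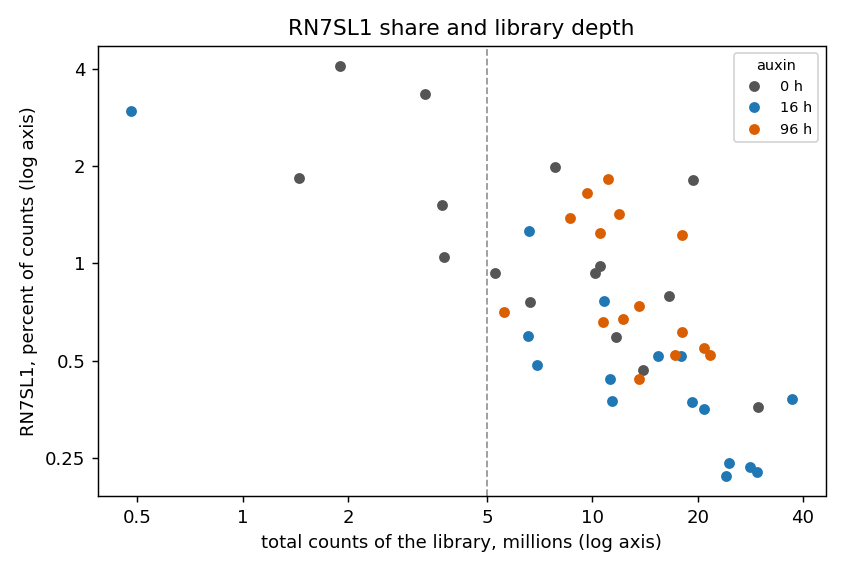
RN7SL1 as a percent of all counts in each of the 46 libraries (y axis, log) against the library's total counts (x axis, log), coloured by hours of auxin; the dashed line stands at 5000000 counts. The 6 libraries left of the line have shares of 1.05% to 4.06%, and 5 of them are from 0 h.

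RN7SL1, the most counted 7SL RNA, was lower after auxin than at 0 h in all 8 within-line comparisons, with a median log2 difference of -1.10, but none passed the threshold. Both times of a line share its 0 h libraries. The common direction did not hold without the libraries under 5000000 counts, where the 96 h difference was 0.03 in LB1 and 0.03 in LB2. In bulk RNA, fewer cells that hold an RNA and less of it per cell cannot be told apart. Levels are given as CPM scaled by TMM. The threshold was an adjusted p of 0.05 in edgeR's quasi-likelihood test, over the 21484 genes tested, and genes below it are named as called. In the parental line RN7SL1 stood at 18963, 5702, 8798 and 9542 CPM in the 4 libraries at 0 h, at 3886, 3884, 6016 and 4970 at 16 h, and at 6716, 12950, 7058 and 6463 at 96 h. Replicate 1 was the highest at 0 h, and the 0 h and 16 h ranges overlapped through replicate 2 at 0 h. The log2 difference was -1.20 ± 0.552 (SE) at 16 h (edgeR adjusted p = 0.163) and -0.37 ± 0.545 at 96 h (adjusted p = 0.730). Without the libraries under 5000000 counts, a setting that keeps replicate 1 at 0 h, the 16 h difference was nearly the same size, -1.22, and passed the threshold (adjusted p = 0.0117). Leaving out single libraries gave -1.36 to -0.73, and the 16 h difference was called in 4 of 57 alternative settings. Without replicate 1 at 0 h the 96 h difference was 0.09.

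In the LAC line the 0 h libraries had 35899, 3943, 7992 and 4940 CPM of RN7SL1, so that a single library, replicate 1, was over 4 times any other. At 16 h the values were 5489, 3812, 2810 and 2379, and at 96 h 5260, 5007, 5295 and 4381. Both auxin groups overlapped the 0 h range, and the 96 h libraries lay close together. The log2 differences of -1.86 ± 0.562 (16 h) and -1.40 ± 0.555 (96 h) came nearest to the threshold for this RNA, with adjusted p of 0.0623 and 0.0772 in edgeR. Without the libraries under 5000000 counts, which removes replicate 1 at 0 h, they were -0.64 and -0.16 (adjusted p = 0.410 and 0.826). Leaving out replicate 2 at 0 h instead brought both past the threshold (-2.13 and -1.66, adjusted p = 0.00947 and 0.0246), as did leaving out LB2 replicate 1 at 0 h or LB2 replicate 3 at 16 h, and for 96 h LAC replicate 4 at 0 h (adjusted p of 0.0253 to 0.0480).

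RN7SL1 in LB1 was at 17394, 17771 and 9508 CPM at 0 h, at 13099, 8044, 4609 and 2375 at 16 h, and at 12808, 15720, 11427 and 15820 at 96 h. The 16 h libraries spread over 5.52-fold, and the 96 h libraries lay within the 0 h range. The differences were -1.08 ± 0.585 and -0.09 ± 0.587 on the log2 scale (edgeR adjusted p = 0.377 and 0.971). The second was 0.04 without LB1 replicate 1 at 0 h and 0.05 without replicate 2.

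LB2 had the widest spread: 42678, 8082, 8754 and 14369 CPM at 0 h, 2484, 5514, 30944 and 3659 at 16 h, and 12496, 7111 and 5886 at 96 h. The highest library of each of the first 2 groups was also the least deep of its group. The differences were -0.80 ± 0.549 at 16 h (edgeR adjusted p = 0.475) and -1.12 ± 0.606 at 96 h (0.367). Without replicate 3 at 16 h, the library of 479446 counts, the 16 h difference was -2.23 and passed the threshold (adjusted p = 0.0119). Leaving out other single libraries brought it as near to 0 as -0.03, and the 96 h difference to -0.29. Without the libraries under 5000000 counts the differences were -1.10 at 16 h (edgeR adjusted p = 0.124) and 0.03 at 96 h (0.985).

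**Figure D2:**
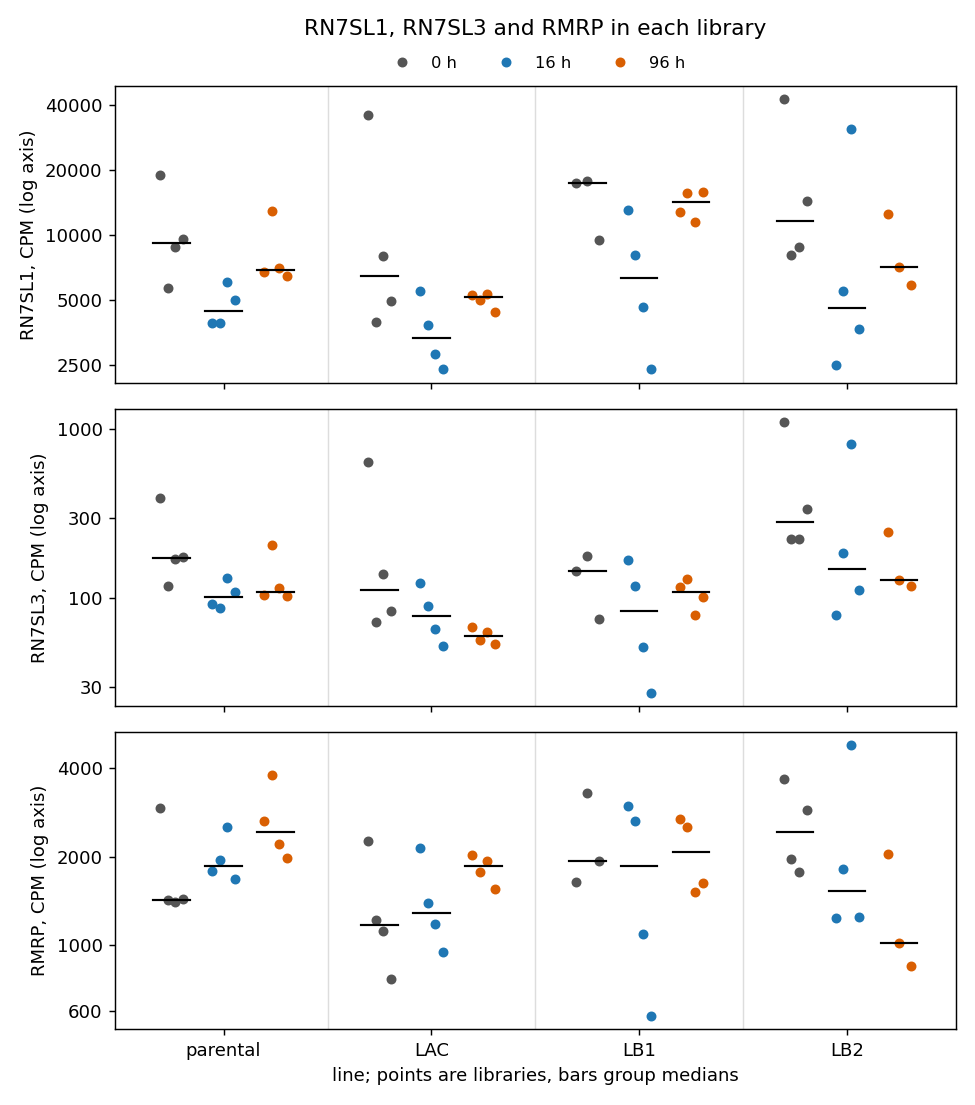
TMM-scaled CPM (y axes, log) of RN7SL1, RN7SL3 and RMRP in each library, by line and hours of auxin; bars are group medians. Single libraries stand far above their group in LAC and LB2, such as LAC replicate 1 at 0 h with 35899 CPM of RN7SL1.

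RN7SL3, the second 7SL gene with counts, was the only one of these RNAs to pass the threshold, and in 1 of its 8 auxin comparisons. In the LAC line it stood at 643, 72.4, 139 and 83.8 CPM at 0 h, at 124, 90.6, 66.0 and 52.6 at 16 h, and at 67.3, 57.0, 62.9 and 53.6 at 96 h. The 96 h libraries all lay below the 0 h libraries, though the highest of them, 67.3, was close to the lowest at 0 h, 72.4. The log2 difference at 96 h was -1.93 ± 0.557, from 235 ± 274 to 60.2 ± 6.09 CPM (mean ± SD, n = 4 each; edgeR adjusted p = 0.0131). In this comparison 15.4% of all genes tested were called, and 8.53% had lower values at 96 h with no overlap. Of the genes called there, 43.8% were higher with TMM scaling and 66.8% with library size alone, and RN7SL3 was called with either. Without LAC replicate 1 at 0 h the difference was -0.68 (adjusted p = 0.462), so the call rests on that library. COL1A1, a stromal marker near the limit of detection, was also lower there, from 3.07 ± 1.97 to 0.849 ± 0.410 CPM (n = 4 each, adjusted p = 0.0195; 0.0872 without the libraries under 5000000 counts), and its part was not tested.

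Over all 4 lines, 1 of 24 tests of these RNAs between an auxin group and 0 h of its line was called, against 5.5% of all gene tests in the same 8 comparisons. The other 7 differences of RN7SL3 were also negative, from -0.29 in LB1 at 96 h to -1.50 in LB2 at 96 h, with edgeR adjusted p from 0.124 to 0.881. In LB2 the 0 h libraries had 1100, 224, 224 and 339 CPM of RN7SL3, the 16 h libraries 79.98, 186, 816 and 112, and the 96 h libraries 247, 128 and 119. The least deep library of each time up to 16 h was again the highest. The parental group means (± SD, n = 4 each) were 214 ± 122, 106 ± 20.1 and 133 ± 50.1 CPM in order of time, and without the libraries under 5000000 counts the 16 h difference of -1.08 was called (adjusted p = 0.0330). Leaving out single libraries gave -1.18 to -0.51 for this parental difference, which was called in 4 of 57 alternative settings. Means in LB1 were 133 ± 53.0 (n = 3), 91.6 ± 64.4 and 107 ± 21.9 (n = 4 each).

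RMRP, the RNase MRP RNA, showed no common direction: 4 of its 8 auxin differences were negative and 4 positive, with a median of -0.02 on the log2 scale, and none passed the threshold in edgeR. Parental libraries had 2913, 1420, 1408 and 1440 CPM at 0 h, 1787, 1940, 2528 and 1676 at 16 h, and 2638, 3768, 2202 and 1971 at 96 h. Apart from replicate 1, the 0 h libraries were below every 16 h and 96 h library, and the log2 differences were 0.14 ± 0.371 and 0.56 ± 0.372 (edgeR adjusted p = 0.849 and 0.377). LAC means (± SD, n = 4 each) were 1342 ± 639, 1416 ± 514 and 1823 ± 210 CPM in order of time. The sign at 16 h in LAC (0.08) turned to -0.01 with RLE scaling. With a trend on GC content and length removed, RMRP passed the threshold as higher in the parental line at 16 h (0.65, edgeR adjusted p = 0.0258) and in LAC at 16 h (0.80, adjusted p = 0.0274) and 96 h (0.96, adjusted p = 0.000589).

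In LB2, RMRP was at 3651, 1959, 1775 and 2869 CPM at 0 h and at 2041, 1018 and 848 at 96 h, its most negative difference (-0.98 ± 0.410, edgeR adjusted p = 0.206), which passed once that trend was removed (-0.70, adjusted p = 0.0406). The highest 96 h library exceeded 2 of the 4 libraries at 0 h. LB1 means were 2283 ± 879 (n = 3), 1819 ± 1162 and 2085 ± 602 CPM (n = 4 each), which overlapped throughout.

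**Figure D3:**
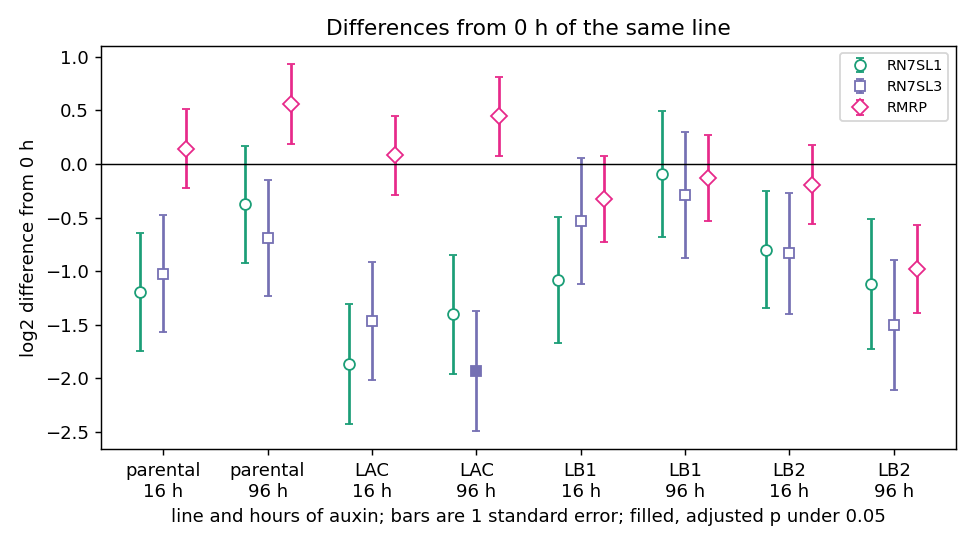
Log2 difference from 0 h of the same line (y axis) for RN7SL1, RN7SL3 and RMRP at 16 and 96 h of auxin in each line; bars are 1 SE of the edgeR fit and the filled point passed an adjusted p of 0.05. All 16 values of RN7SL1 and RN7SL3 are below 0 and those of RMRP lie on both sides; pairs of times in a line share its 0 h libraries.

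Whether a tagged line responded to auxin differently from the parental line was tested as an interaction for the 3 RNAs, 3 lines and 2 times. None of the 18 differences was called by edgeR, against 1.49% of all gene tests, and 1 had an unadjusted p under 0.05. That was RMRP in LB2 at 96 h, at -1.54 ± 0.553 on the log2 scale (edgeR adjusted p = 0.210), where 0.368% of genes were called. DESeq2 called 0 of the 18. For RN7SL1 the differences of response ran from -1.03 to 0.40 and for RN7SL3 from -1.24 to 0.49, each with an SE between 0.762 and 0.806. With no filter on low counts 3 of the 18 passed, all at 96 h: RN7SL1 and RN7SL3 in LAC (-0.98 and -1.19) and RMRP in LB2 (-1.55). RMRP in LB2 also passed with voom (-1.48) and after removal of the GC and length trend (-1.17).

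Before auxin, none of the 9 differences of a tagged line from the parental line was called by edgeR (9.35% of all gene tests were), and DESeq2 also called 0. A single one had an unadjusted p under 0.05: RN7SL3 in LB2, 472 ± 422 against 214 ± 122 CPM (n = 4 each), a log2 difference of 1.12 ± 0.543 (adjusted p = 0.223). Without the libraries under 5000000 counts it was -0.01 (adjusted p = 0.997). RN7SL3 in LAC went from 0.10 ± 0.539 to -1.20 in that setting and was then called (adjusted p = 0.0248). RMRP in LAC was called after removal of the GC and length trend (-0.58, adjusted p = 0.0372) and with voom (-0.89, adjusted p = 0.0307).

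The ratio of 2 of these RNAs within a library needs no scaling between libraries. Levels of RN7SL1 and RN7SL3 varied over a median of 2.22-fold and 2.37-fold between replicates of a group, whereas the number of RN7SL1 counts per RN7SL3 count varied over 1.13-fold (1.41-fold at most, in LB1 at 96 h). Among the 21483 other genes tested, RN7SL3 had the smallest such range of its ratio to RN7SL1. COPS9, a subunit of the COP9 signalosome, came next at 1.49-fold, RMRP was sixth at 1.57-fold, and the median gene was at 2.79-fold. RN7SL1 and RN7SL3 are near-identical in sequence, and the part that shared reads play in this was not tested.

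The RN7SL1 to RN7SL3 ratio followed line and time. In the parental line it was 48.2, 48.1, 51.5 and 54.6 in the 0 h libraries, 41.8, 44.2, 45.4 and 45.4 at 16 h, and 64.6, 62.5, 61.2 and 62.5 at 96 h. The 3 groups did not overlap, with 16 h lowest and 96 h highest. The geometric means were 50.6, 44.2 and 62.7, a change of -0.20 ± 0.0518 (SE) on the log2 scale at 16 h and 0.31 ± 0.0464 at 96 h.

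LAC showed the same order with a wider gap: 55.8, 54.5, 57.3 and 59.0 at 0 h, 44.3, 42.1, 42.6 and 45.3 at 16 h, and 78.1, 87.9, 84.2 and 81.7 at 96 h. Again no groups overlapped, and LAC replicate 1 at 0 h, which stood apart in level, had a ratio within its group. The log2 differences from 0 h were -0.38 ± 0.0346 and 0.55 ± 0.0434.

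LB1 had the highest ratios of the 4 lines, at 119, 99.2 and 126 at 0 h, 77.3, 68.2, 89.6 and 85.7 at 16 h, and 110, 120, 144 and 155 at 96 h. The 16 h libraries lay below both other groups, and 96 h overlapped 0 h. LB2 had the lowest: 38.8, 36.0, 39.0 and 42.4 at 0 h, 31.1, 29.7, 37.9 and 32.8 at 16 h, and 50.6, 55.5 and 49.6 at 96 h. The 96 h libraries lay above both other groups, and 16 h overlapped 0 h through replicate 3, the library of 479446 counts.

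Counted over lines, the 16 h geometric mean was below that of 0 h in 4 of 4 lines, with no overlap in 3. The 96 h mean was above it in 4 of 4 lines, with no overlap in 3, and 16 h and 96 h did not overlap in any of the 4. For comparison, the ratio of RN7SL1 to another tested gene did not overlap between the same 2 groups for 28.7% of genes in the parental line at 16 h, 4.45% in LAC at 16 h, 14.9% in LB1 at 16 h and 2.9% in LB2 at 16 h. At 96 h these shares were 1.84%, 5.4%, 5.91% and 6.0%. Each comparison without overlap had an exact two-sided permutation p of 0.0286, the smallest that groups of 4 and 4 or 4 and 3 allow. Adjusted over the 34 ratio tests this was 0.0694, so none passed an adjusted threshold of 0.05. At this floor an adjusted p under 0.05 would need more of the 34 tests to have a p as small. Not passing therefore says little about any single comparison.

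**Figure D4:**
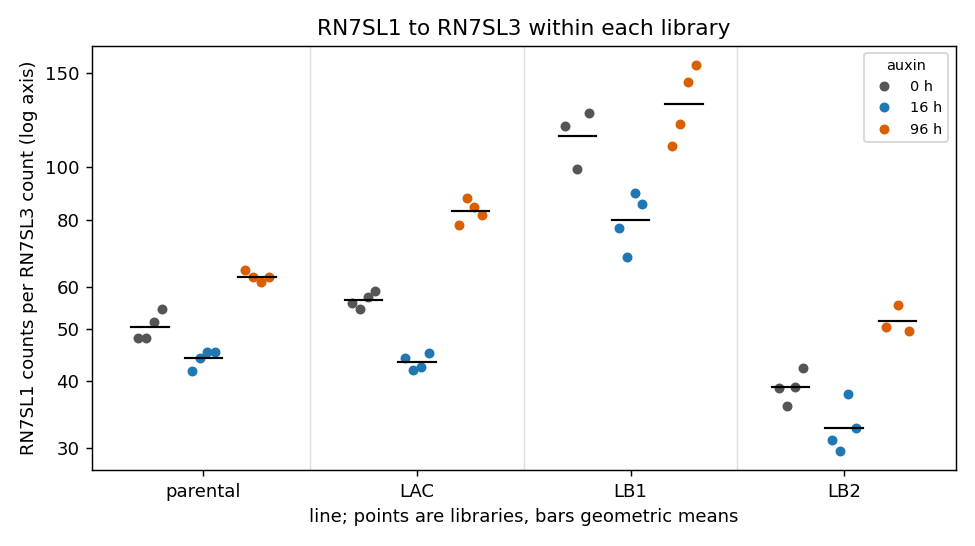
RN7SL1 counts per RN7SL3 count (y axis, log) in each library, by line and hours of auxin; bars are geometric means. Within each line the 16 h libraries lie below those of 96 h without overlap, and LB1 lies above and LB2 below the other lines at every time.

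At 0 h the ratio in LB1 was 2.26-fold that of the parental line and the ratio in LB2 0.771-fold, both without overlap (exact permutation p = 0.0286, adjusted 0.0694), whereas LAC overlapped the parental line at 1.12-fold. The share of other genes whose ratio to RN7SL1 did not overlap was 5.87% for LB1, 1.84% for LB2 and 0.815% for LAC. The tagged lines' changes with auxin were compared with the parental change by permuting line labels within each time, a test that a difference of level at 0 h makes less sensitive. The smallest of the 6 p-values for this ratio was 0.0278 (exact permutation; LAC at 16 h, -0.18 on the log2 scale, adjusted 0.0694).

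RN7SL1 relative to RMRP was lower after 16 h in all 4 lines. The parental libraries had ratios of 6.51, 4.02, 6.25 and 6.63 at 0 h, 2.17, 2.00, 2.38 and 2.97 at 16 h, and 2.55, 3.44, 3.21 and 3.28 at 96 h. Both auxin groups lay below the 0 h group. In LAC the 0 h ratios were 15.9, 3.23, 7.15 and 6.40, and all 8 auxin libraries were between 2.38 and 2.83, again without overlap.

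In LB1 the ratio was 10.6, 5.41 and 4.92 at 0 h and 4.41, 3.05, 4.21 and 4.11 at 16 h, without overlap, and 4.78 to 9.75 at 96 h, which overlapped 0 h. In LB2 it was 4.13 to 11.7 at 0 h, 2.01 to 6.502 at 16 h and 6.12 to 6.99 at 96 h, all overlapping 0 h. The geometric mean was thus lower than at 0 h at 96 h in 2 of 4 lines, parental (0.540-fold) and LAC (0.394-fold), and not in LB1 (1.04-fold) or LB2 (1.14-fold). The exact permutation p was 0.0286 (adjusted 0.0694) for each of the 5 comparisons without overlap. The share of other genes whose ratio to RN7SL1 did not overlap there was 28.7% and 1.84% in the parental line (16 and 96 h), 4.45% and 5.4% in LAC and 14.9% in LB1 at 16 h. None of the 6 differences of response from the parental line reached an exact permutation p under 0.05 (smallest 0.0637, LB2 at 96 h). Over the alternatives the lowest exact permutation p was 0.00408 for LB2, 0.0124 for LB1 and 0.0143 for LAC at 96 h, and 0.0229 for LB1 at 16 h. The highest for these was 0.135 to 0.854. LAC and LB2 at 16 h stayed above 0.05 in every alternative.

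**Figure D5:**
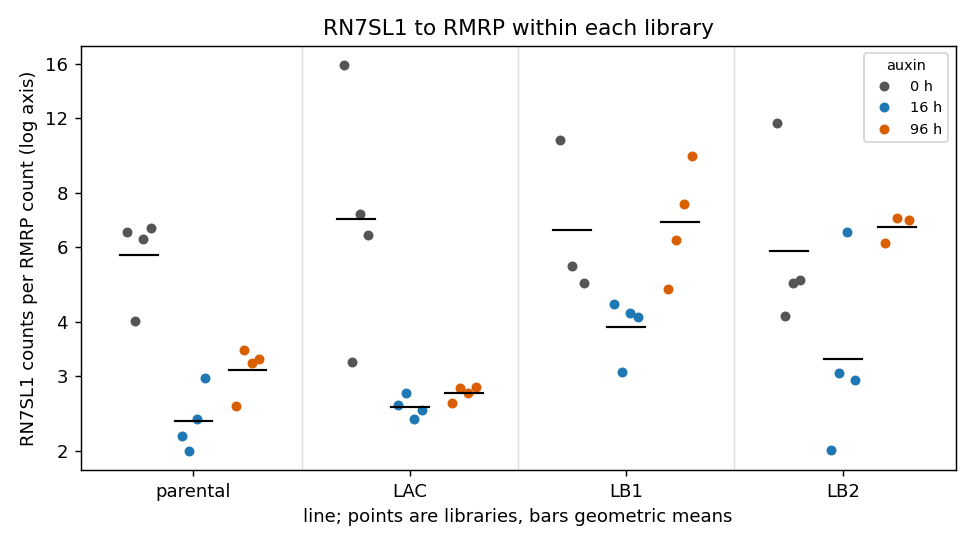
RN7SL1 counts per RMRP count (y axis, log) in each library, by line and hours of auxin; bars are geometric means. The auxin libraries of the parental and LAC lines all lie below their 0 h libraries, while those of LB1 and LB2 at 96 h overlap their 0 h libraries.

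Genes named as further copies of these RNAs were counted apart. Of 677 other genes with names starting in RN7SL, 488 had counts, together 87814, or 2.00% of the counts of the 7SL RNAs themselves. The most counted was RN7SL4P on chromosome 3 with 23582 counts and 86.09% identity to RN7SL1. RN7SL1 counts per RN7SL4P count had geometric means between 142 in the parental line at 0 h and 287 in LAC at 16 h. Of 293 copies of RN7SK, 182 had counts, together 32854, while RN7SK itself was at 0. Summed, the RN7SK copies stood at 28.2 ± 12.2 CPM of library size in LAC at 16 h, the lowest group, and at 133 ± 79.6 in LB1 at 96 h, the highest (SD, n = 4 each). The 4 most counted copies are 81.52% to 83.28% identical to RN7SK, so these sums are not a level of RN7SK. With all RN7SL genes summed to 1 feature and all RN7SK genes to another, neither sum was called in any comparison by edgeR. The lowest adjusted p of the 7SL sum was 0.0633 (LAC at 16 h, -1.83 ± 0.547), and that of the RN7SK copies was 0.0820 (parental line at 16 h, -1.12 ± 0.427).

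Other genes of 200 to 500 bases gave a reference for length. The 1262 of them that were tested had a median log2 difference of -0.79 at 16 h and -0.62 at 96 h in the parental line, against -0.04 and -0.03 for all genes. In LAC the medians were -0.25 and 0.14, in LB1 -0.30 and 0.31, and in LB2 -0.44 and -0.01. At 16 h the short genes thus lay below all genes in every line, as RN7SL1 and RN7SL3 did. The part of transcript length in the 7SL differences was not tested beyond removing a trend on length and GC content, which left RN7SL1 at -0.70 in the parental line (edgeR adjusted p = 0.0635) and -0.80 in LAC (0.0924) after 16 h.

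The proteins that make these RNAs and work with them were described from 4 lists. All 33 genes of the RNA polymerase III machinery were tested. In LAC at 0 h 15 of them were higher than in the parental line and 0 lower, with a list median of 0.43 on the log2 scale against -0.06 for all genes, of which 8.71% were called higher and 7.08% lower. MAF1, the repressor of RNA polymerase III, had the largest difference (85.5 ± 16.1 against 47.7 ± 5.59 CPM, n = 4 each, log2 0.84 ± 0.166, edgeR adjusted p = 0.000356). Without the libraries under 5000000 counts 15 were higher and 1 lower, whereas with library size as the only scaling 6 were higher and 1 lower.

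After 96 h in LAC, 6 of the 33 genes fell and 1 rose, against 8.64% of all genes called lower and 6.74% called higher. MAF1 stood at 108, 69.99, 82.1 and 81.7 CPM at 0 h and at 51.5, 40.2, 44.3 and 46.9 at 96 h. The 2 groups were apart, and MAF1 fell by 0.89 on the log2 scale (SE 0.163, edgeR adjusted p = 0.000141). Lower values at 96 h with no overlap were found for 8.53% of all genes. This fall and the higher MAF1 level in LAC than in the parental line share the LAC libraries at 0 h, so they are not independent. SNAPC4, the largest subunit of the complex that starts transcription of RN7SK, RMRP and RPPH1, fell by 0.84 (SE 0.194, adjusted p = 0.00198), and POLR3G, an alternative polymerase subunit, rose by 0.48 (SE 0.147, adjusted p = 0.0191; 0.0765 without the libraries under 5000000 counts). The rise of POLR3G was also not called without LAC replicate 1, 3 or 4 at 0 h or replicate 2 at 96 h (0.37 to 0.46, adjusted p up to 0.123). With all libraries under 5000000 counts left out, 8 machinery genes fell and 0 rose. Without LAC replicate 2 at 0 h 10 fell, and with library size as the only scaling 5 fell and 3 rose.

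In the parental line 5 machinery genes rose and 1 fell at 16 h (4.23% of all genes were called higher and 4.78% lower), and 4 rose at 96 h (3.94% called higher). POLR3G went from 32.8, 31.6, 22.8 and 24.9 CPM at 0 h to 54.4, 49.0, 37.8 and 44.0 at 16 h and 48.4, 48.7, 41.2 and 44.2 at 96 h. Both auxin groups lay above 0 h, with log2 rises of 0.72 ± 0.152 and 0.69 ± 0.153 (edgeR adjusted p = 0.00221 and 0.00260). Higher values than at 0 h with no overlap were found for 11.3% of all genes at 16 h and 9.23% at 96 h. GTF3A, the 5S RNA gene factor TFIIIA, rose by 0.59 ± 0.113 at 96 h (adjusted p = 0.000490). The count of 5 at 16 h was 3 without parental replicate 1 or 4 at 0 h, 2 without replicate 4 at 16 h, and 9 without LAC or LB2 replicate 1 at 0 h. It was 8 without the libraries under 5000000 counts, 3 under RLE scaling and 2 under scaling by library size alone.

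In LAC at 16 h 1 machinery gene rose, POU2F1, the factor OCT1 (0.50 ± 0.132, edgeR adjusted p = 0.0352; 1.34% of all genes were called higher and 0.447% lower). POU2F1 was at 0.41 without the libraries under 5000000 counts (adjusted p = 0.102). It was not called without any 1 of 9 libraries: LAC replicates 1, 3 and 4 at 0 h, the 4 LAC libraries at 16 h, and LB2 replicates 1 and 2 at 96 h (0.43 to 0.55, adjusted p up to 0.203). POLR3E, a polymerase subunit, rose in LB1 after 16 h (0.48 ± 0.127, adjusted p = 0.0410; 0.987% called higher) and POLR1D, a subunit shared with RNA polymerase I, in LB2 (0.47 ± 0.119, adjusted p = 0.0242; 1.43% called higher). Neither of these was called with RLE scaling or library size only. POLR3E lost its call without any 1 of 7 libraries, among them the 3 LB1 libraries at 0 h (adjusted p up to 0.160), and POLR1D without any 1 of 17 (up to 0.186) or without the libraries under 5000000 counts (0.34, adjusted p = 0.125). After 96 h GTF3A rose and GTF3C1, the largest subunit of TFIIIC, fell in LB1 (0.45 ± 0.122 and -0.59 ± 0.162; 1.05% called higher and 2.12% lower). GTF3A was not called there without LB1 replicate 1, 2 or 3 at 0 h or replicate 2 or 3 at 96 h (0.39 to 0.52, adjusted p up to 0.165). The same held for GTF3C1 without LB1 replicate 2 or 3 at 0 h or replicate 1 or 2 at 96 h (-0.59 to -0.52, adjusted p up to 0.139). In LB2 GTF3C6, another TFIIIC subunit, and BDP1, a subunit of TFIIIB, rose (0.56 ± 0.168 and 0.44 ± 0.121; 1.95% called higher and 1.6% lower). GTF3C6 lost its call without any 1 of 16 libraries, among them LB2 replicates 2, 3 and 4 at 0 h and 2 and 3 at 96 h (adjusted p up to 0.238). BDP1 lost it without LB2 replicate 2 or 3 at 0 h or replicate 1 or 3 at 96 h (0.40 to 0.44, adjusted p up to 0.150).

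Against the parental line at 0 h, 2 machinery genes were higher and 1 lower in LB1 (1.62% of genes were called higher and 2.43% lower), and 6 were higher and 0 lower in LB2 (3.91% called higher). POLR3G was among the higher ones in both, by 0.74 ± 0.167 in LB1 (edgeR adjusted p = 0.00315) and 1.12 ± 0.155 in LB2 (8.02e-07). These comparisons share the parental 0 h libraries with the rises of POLR3G in the parental line. The count in LB2 was 3 without parental replicate 4 or LB2 replicate 3 at 0 h.

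Of the 8 proteins of the signal recognition particle and its receptor, all tested, 1 fell in LAC at 96 h and 0 rose, where 8.64% of all genes were called lower. It was SRP54, the subunit that binds the signal peptide (109 ± 12.8 to 74.7 ± 4.25 CPM, n = 4 each, log2 -0.55 ± 0.111, edgeR adjusted p = 0.000484). In the parental line SRP68 rose at 16 h (0.48 ± 0.149, adjusted p = 0.0349; 4.23% of all genes were called higher) and SRPRB at 96 h (0.59 ± 0.137, adjusted p = 0.00396; 3.94% called higher). SRP68 lost its call without any 1 of 8 libraries, 5 of them parental (adjusted p up to 0.113). At 0 h both receptor subunits were higher in LAC than in the parental line, SRPRA by 0.69 ± 0.155 and SRPRB by 0.52 ± 0.137 (edgeR adjusted p = 0.00152 and 0.00687; 8.71% called higher). SRPRA was lower in LB1 (-0.76 ± 0.173, adjusted p = 0.00374; 2.43% called lower). Without the libraries under 5000000 counts 2 fell in LAC at 96 h, and with library size only 1 fell and 2 rose.

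Of the 7 genes of the 7SK particle and P-TEFb, all tested, 3 fell and 1 rose in LAC at 96 h (8.64% of all genes were called lower and 6.74% higher). In LAC 3 were higher and 1 lower than in the parental line at 0 h (8.71% called higher and 7.08% lower). Both comparisons use the same LAC libraries at 0 h, so they are not independent. HEXIM1, for example, was at 78.3 ± 7.65 CPM in the parental line at 0 h. HEXIM1, which inhibits the kinase within the particle, fell by 0.91 (SE 0.195, 121 ± 33.5 to 64.2 ± 12.7 CPM, edgeR adjusted p = 0.000998), MEPCE, which caps RN7SK, fell by 1.29 (SE 0.341, adjusted p = 0.00668), and the cyclin CCNT2 rose by 0.56 ± 0.142 (adjusted p = 0.00497). Over 61.3% of its length MEPCE overlaps another gene on the same strand. Without LAC replicate 1 at 0 h 1 of the 7 fell at 96 h and 1 was higher at 0 h, and without the libraries under 5000000 counts 2 fell. MEPCE was the gene lost there, at -0.76 (adjusted p = 0.0528).

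Among 11 protein subunits of RNase P and RNase MRP, POP1, the largest, rose in the parental line at 16 h (0.46 ± 0.130, edgeR adjusted p = 0.0205; 4.23% of all genes were called higher) and RPP14 at 96 h (0.59 ± 0.189, adjusted p = 0.0452; 3.94% called higher). POP1 lost its call without parental replicate 3 or 4 at 0 h or at 16 h (adjusted p up to 0.0961), and RPP14 without any 1 of 11 libraries (up to 0.0972). In LAC at 96 h RPP40 rose (0.66 ± 0.192, adjusted p = 0.0141; 6.74% called higher), but not without LAC replicate 1 or 3 at 0 h (adjusted p up to 0.0728). POP1 and RPP14 were higher in LAC than in the parental line at 0 h (8.71% called higher), and RPP40 and POP5 in LB2 (3.91% called higher). RPP14 in LAC at 0 h went from 0.71 ± 0.192 to 0.41 without the libraries under 5000000 counts and was not called (adjusted p = 0.0608). RPP40 in LB2 at 0 h was not called without parental replicate 3 or LB2 replicate 2 at 0 h (adjusted p up to 0.0566). RPP14 overlaps another gene on the same strand over 41.8% of its length, and the rises of POP1, RPP14 and SRP68 in the parental line were not called with RLE scaling or library size only.

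The genes whose log2 CPM followed each RNA most closely over the 46 libraries are given as a description, since all genes of a library share its depth and scaling. For RN7SL1 they were KIFC2 (Pearson r = 0.865), ROMO1 (0.839) and SNORA73B (0.836), for RN7SL3 ROMO1 (0.861), PTMS (0.843) and TNNC1 (0.839), and for RMRP SNORA73B (0.808), H4C4 (0.782) and SNORD17 (0.780). RN7SL1 and RN7SL3 had r = 0.825, RN7SL1 and RMRP 0.687, and RN7SL3 and RMRP 0.651. KIFC2 thus followed RN7SL1 more closely than RN7SL3 did, and the changes of the RN7SL1 to RN7SL3 ratio with line and time are part of that value.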

How the data were processed

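Total RNA of 46 cultures was sequenced after ribosomal RNA depletion with a stranded kit, per the labels' protocols. The deposited file is a single table in which the authors give read counts for each gene, made with featureCounts 1.6.4 in the nf-core/rnaseq 1.4.2 environment, per the file headers. The submitters' processing notes also name STAR 2.7.10a, SAMtools 1.10, deepTools 3.4.5, DESeq2 1.40.2 and GRCh38. The annotation release and the settings for strand, overlaps and multiply mapped reads are not given in the sources used here. A gene broken over several lines was left out. Symbols were found for 42341 of 62756 genes. The RMRP sequence came from GENCODE release 29 (the other sequences and 1 gene named by the rule below are not reported here), whose gene models gave GC content for 92.84% of genes.

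The counts were tested with edgeR 4.0.16 (R 4.3.3): quasi-likelihood fit of all 46 libraries in 12 groups, TMM scaling, default filterByExpr, Benjamini-Hochberg adjustment over 21484 genes, two-sided, called at an adjusted p under 0.05, in 17 comparisons. Within-library ratios of raw counts were compared on the log2 scale by exact two-sided permutation. The 4 ratios first planned needed RN7SL2, RN7SK or RPPH1, which were at 0, so RN7SL1 to RN7SL3 and RN7SL1 to RMRP were used, chosen after the values were seen. The fit and the permutation test were checked on simulated data. Replicate numbers did not pair the samples (29 same-number correlations of deviations, -0.143 to 0.187). The 66 replicate pairs differed by more than sampling noise.

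The members and lists were chosen with earlier results of these data known. Named genes were the 6 RNAs, from each list and each comparison within a line or at 0 h at most the 2 called genes with the largest rise and the 2 with the largest fall, and the 3 genes with the highest Pearson r to each RNA on log2 CPM (prior count 2). Alternatives were RLE scaling, library size only, scaling without these RNAs and their copies, no low-count filter, DESeq2 1.42.0, limma 3.58.1 voom with quality weights, the compared groups alone, a replicate block, removal of a GC and length trend, copies summed per family, and leaving out the shallow libraries or each replicate. The floor of 3 counts covers counting error only, whereas each SE or SD includes the spread between libraries.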

Additional observations from a re-analysis of the deposited data

Results flagged for a closer look

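In 11 of 50 groups of 4 libraries, over 5 measures, the highest or lowest library stood far from the other 3. The gaps were taken on the linear scale, and the same libraries recur over the measures. A rate of about 1 in 20 would hold only for independent and normally distributed values, so the count of 11 is a description. RN7SL1 stood apart at 12950 CPM in parental replicate 2 at 96 h, 35899 in LAC replicate 1 at 0 h and 30944 in LB2 replicate 3 at 16 h. RN7SL3 stood apart in the same 3 libraries, at 207, 643 and 816 CPM, and in LB2 replicate 1 at 0 h with 1100 CPM. RMRP stood apart at 2913 CPM in parental replicate 1 at 0 h and at 4759 CPM in LB2 replicate 3 at 16 h. The RN7SL1 to RMRP ratio was lowest in parental replicate 2 at 0 h, at 4.02, and highest in LB2 replicate 1 at 0 h, at 11.7. The RN7SL1 to RN7SL3 ratio had no such library. LAC replicate 1 and LB2 replicate 1 at 0 h and LB2 replicate 3 at 16 h have under 5000000 counts, and the part of depth in these values was not tested.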

How the results depend on the processing

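The number of the 24 auxin tests of RN7SL1, RN7SL3 and RMRP that passed was 1. It was 15 with no low-count filter, 7 with voom, 7 with the GC and length trend removed, 3 in the compared groups alone, 2 with DESeq2 and 2 without the libraries under 5000000 counts, and 0 to 5 without single libraries. LAC replicate 1 at 0 h took it to 0, LAC replicates 2 and 4 at 0 h to 4 and 2, LB2 replicate 1 at 0 h to 3 and LB2 replicate 3 at 16 h to 5. Of 18 response differences 0 passed, but 3 with no filter, 1 with voom and 1 with the trend removed, and 0 to 0 without single libraries. Of 9 differences at 0 h 0 passed, but 3 with no filter, 2 with voom, 2 with the trend removed and 1 without the shallow libraries, and 0 to 0 without single libraries. The cause of these differences was not tested. RN7SL3 in LAC against the parental line at 0 h changed sign and was called with voom (-1.02) and without the shallow libraries (-1.20). The call of RN7SL3 in LAC at 96 h held in 53 of 57 settings, its adjusted p being at most 0.462. In 46 of these settings a single library was left out, mostly from outside the groups compared, so the count says little of how firm the call is. Of those 46, only the setting without LAC replicate 1 at 0 h lost the call. The other losses were among the remaining alternatives, which include leaving out the shallow libraries. With the replicate block the counts were 1, 0 and 0 as without it; same-numbered samples correlated best in 9 of 29 cases.

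Leaving out libraries can only keep or raise the numbers of ratio comparisons without overlap, so these say nothing of how firm they are: 6 of 8 with auxin for RN7SL1 to RN7SL3 (6 to 7 without single libraries, 7 without the shallow ones), 2 of 3 at 0 h (2 to 3), 5 of 8 for RN7SL1 to RMRP (5 to 6; 7), and 0 of 3 at 0 h (0 to 0). Without the shallow libraries groups shrink, and 3 against 3 cannot go below an exact permutation p of 0.1. Scaling by library size only moved the median of all genes by up to 0.21 on the log2 scale (LAC response at 96 h). It moved the share of called genes that were higher from 55.1% to 23.8% in LAC and 47.6% to 33.1% in LB2 at 0 h. With auxin it moved from 47.0% to 21.3% and 50.7% to 30.9% (parental, 16 and 96 h), 74.9% to 58.4% (LAC, 16 h), 65.6% to 32.6% and 33.1% to 47.5% (LB1), and 79.1% to 55.7% and 55.0% to 72.3% (LB2).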

Other observations

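Among 18 other RNAs made by RNA polymerase III (Y RNAs, vault RNAs, U6, 5S and BCYRN1), 17 were in the table, 2 were at 0 throughout and 3 passed the filter on low counts. BCYRN1, a brain cytoplasmic RNA that is also found in tumours, fell in LAC at 96 h from 6.90 ± 5.78 to 1.405 ± 0.408 CPM (n = 4 each, log2 -2.14 ± 0.533, edgeR adjusted p = 0.00421), and without the libraries under 5000000 counts by 1.51 (adjusted p = 0.00690). It was not called without LAC replicate 1 at 0 h (-1.51, adjusted p = 0.0523). BCYRN1 was the 1 called of the 3 tested in that comparison, where 8.64% of all genes were called lower.

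Of 24 small nuclear and nucleolar RNAs made by RNA polymerase II, 7 were at 0 and 16 were tested. In LAC at 96 h 2 rose and 4 fell, where 6.74% of all genes were called higher and 8.64% lower. RNU1-1, a U1 gene, rose by 1.05 ± 0.249 and RNU5B-1, a U5 gene, by 1.05 ± 0.268 (edgeR adjusted p = 0.00260 and 0.00516), both from families of near-identical copies. SNORD3A, a U3 gene, fell by 4.31 (SE 0.782, adjusted p = 0.000129) from a 0 h mean of 69.9 ± 133 CPM, and without the libraries under 5000000 counts its difference was 0.08 (adjusted p = 0.941). TERC, the telomerase RNA, fell by 1.47 (SE 0.477, adjusted p = 0.0284), and overlaps another gene on the same strand over 81.0% of its length. In LB2 at 96 h 3 fell, among them SNORD3B-1 by 1.45 (SE 0.354) and SNORD3B-2 by 1.38 (SE 0.328), which share most of their sequence, where 1.6% of all genes were called lower. They fell by 0.98 and 0.84 without the libraries under 5000000 counts. The 4 that fell in LAC were 1 without replicate 1 at 0 h and 2 without replicate 3 or 4 at 96 h, and the 3 in LB2 were 1 without replicate 1 at 0 h and 0 without replicate 3 at 96 h.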
